A study of Drosophila melanogaster with 4 samples.

Results

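The genes described here are 10 Drosophila genes of mesoderm, heart and muscle, out of 13968 protein-coding genes on the main chromosome arms. They are tin, bap, Mef2, zfh1, bin, htl, how, Act57B, Mhc and nau, chosen by symbol and all found in the Ensembl annotation. The choice was made with earlier results of these data known. For each gene, every Gug peak in the gene span and 10 kb either side (its window) was collected from 4 replicate peak lists, together with the signal of each peak. The windows cover 339 kb in 9 merged stretches, which is 0.246% of the arms, and the windows of the neighbouring genes tin and bap overlap. Early fate genes (tin, bap, bin, zfh1, Mef2, nau and htl) were set against the muscle structural genes Act57B and Mhc, and how was kept apart.

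The series is a chromatin immunoprecipitation study (ChIP-seq) of Gug, also called Grunge, the fly Atrophin protein. Flies of the strain Gug-GFP made Gug joined to eGFP, and an anti-GFP antibody was used to pull down the fusion protein from whole embryos 0 to 24 h old. Sheared chromatin of 200 to 800 bp was used, and the labels give 4 biological replicates of this single group. No control sample was analysed here, and the labels do not give the promoter that drives the fusion protein. Since all tissues and stages of that day were mixed, mesoderm is a part of each sample, and many cells with little Gug at a site cannot be told apart from few cells with much.

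Gug is known as a transcriptional co-repressor that acts together with nuclear receptors such as Tailless. In the fly embryo the mesoderm is subdivided by transcription factors that act in sequence. Tinman specifies heart and dorsal mesoderm, Bagpipe and Biniou act in visceral muscle precursors, Zfh1 and Mef2 act widely in mesoderm and muscle, and contractile genes are switched on late, when muscle fibres form.

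The 4 sequences that follow are from regions found in all 4 lists. They are shown because they hold the DNA under the strongest intronic region, the single promoter region, and the region nearest to the TSS at bin and within how. Each runs 5′ to 3′ on the plus strand for 201 bases around the region's centre, from the RefSeq copy of the Release 6 assembly, which is dm6. Capitals mark a match to a motif described further down: CATATG, a bHLH word, at tin, then TGTTTAT, a Biniou word, at bin, and AAGTCA, a Tailless half-site, at how. The zfh1 stretch holds no match to any motif searched.
zfh1 intron, chr3R:30781668-30781868: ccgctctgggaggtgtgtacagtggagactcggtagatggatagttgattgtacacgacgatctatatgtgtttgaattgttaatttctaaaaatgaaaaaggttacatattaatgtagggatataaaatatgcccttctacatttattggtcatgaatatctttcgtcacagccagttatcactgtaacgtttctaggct
tin promoter, chr3R:21378714-21378914: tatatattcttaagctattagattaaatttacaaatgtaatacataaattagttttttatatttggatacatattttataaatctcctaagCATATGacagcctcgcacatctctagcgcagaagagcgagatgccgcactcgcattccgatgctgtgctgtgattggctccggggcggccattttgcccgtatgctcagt
bin upstream, chr3L:6989406-6989606: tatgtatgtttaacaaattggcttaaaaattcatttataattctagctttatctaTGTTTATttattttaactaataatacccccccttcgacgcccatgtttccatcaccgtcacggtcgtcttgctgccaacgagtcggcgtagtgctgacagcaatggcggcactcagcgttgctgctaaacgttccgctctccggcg
how intron, chr3R:22049231-22049431: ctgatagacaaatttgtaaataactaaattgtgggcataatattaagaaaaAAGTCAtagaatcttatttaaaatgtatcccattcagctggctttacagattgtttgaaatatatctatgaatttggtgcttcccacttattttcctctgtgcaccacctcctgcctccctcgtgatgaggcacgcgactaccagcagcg

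Peaks were called by the authors in each replicate. On the arms, replicates 1 to 4 had 1948, 3786, 2117 and 2450 peaks past the authors' threshold. Every peak carries the authors' own signal score, which was turned into a percentile within its list, where 100 is the strongest peak. Peaks whose summits lay within 200 bp were joined into a region, and a region present in 2 or more lists was counted as reproducible. There were 2643 such regions, 1171 of them in all 4 lists. The files hold no read counts, so depth is unknown, and with 4 replicates of 1 group an exact 2-sided sign-flip test over lists could not go below p = 0.125. No test was therefore made, and errors are the SD over lists (n = 4 unless fewer lists hold the peak).

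The member windows held 14, 20, 13 and 14 thresholded peaks in replicates 1 to 4, or 0.719%, 0.528%, 0.614% and 0.571% of each list. The longest list, replicate 2, gave the most peaks and the smallest share. The peaks formed 25 regions, of which 15 were reproducible: 9 in all 4 lists, 3 in 3 lists and 3 in 2. A reproducible region lay in the window of 6 of the 10 genes (tin, Mef2, zfh1, bin, how and nau), and 49.4% of all protein-coding genes had one. Of the 10 genes, 5 had a region of all 4 lists (28.5% of all genes), and 7 had a region of any list (63.5% of all genes). Windows of these genes run from 21.6 to 65.4 kb against a median of 22.2 kb over all genes, so the counts are not adjusted for window size. No peak of the 4 replicate thresholded lists had its summit in the windows of bap, Act57B or Mhc.

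**Figure D1:**
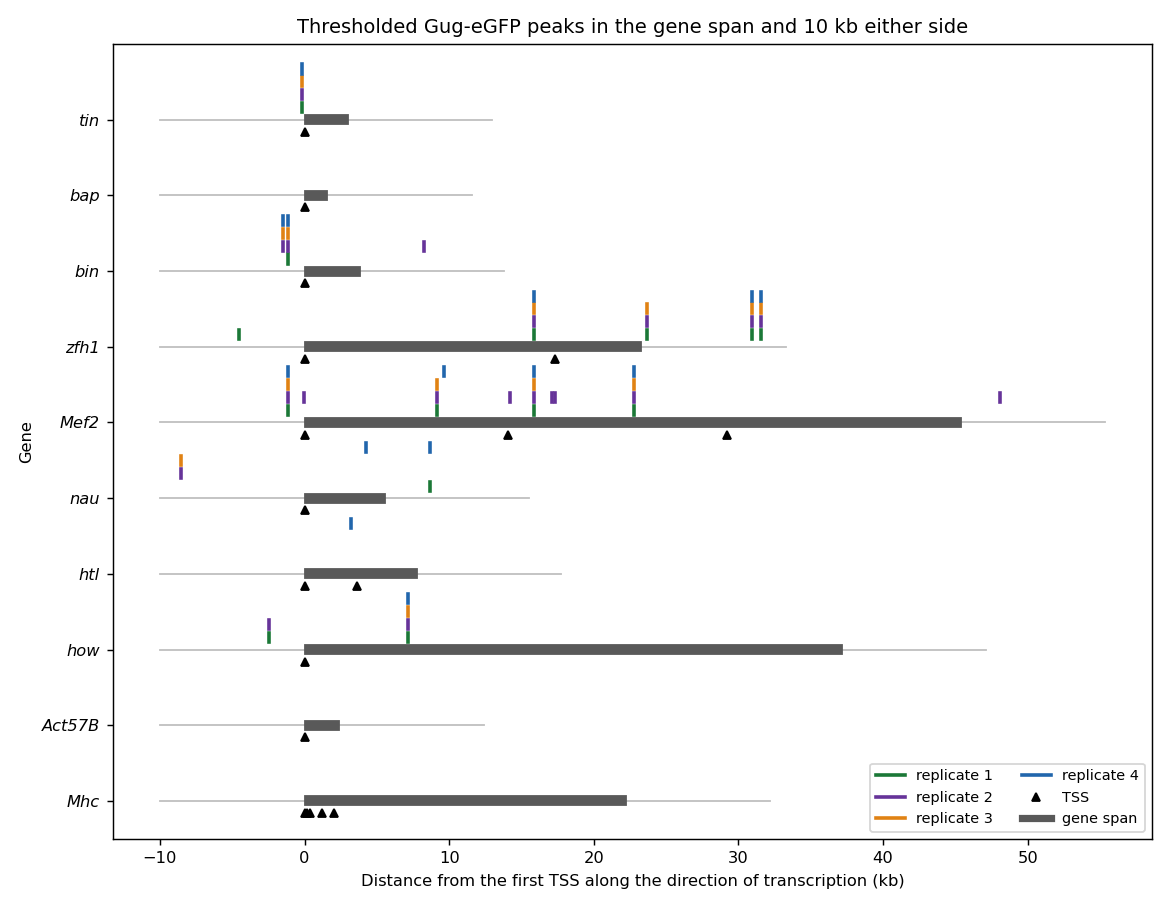
Thresholded Gug-eGFP peaks around the 10 genes. The x axis is distance in kb from the first transcription start site (TSS) along the direction of transcription, each row is a gene, and coloured ticks are peaks of replicates 1 to 4. Mef2 and zfh1 hold 8 of the 15 reproducible regions, and the rows of bap, Act57B and Mhc hold none.

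Tinman is the NK-type homeodomain factor needed for heart and dorsal mesoderm. The gene tin lies at chr3R:21378977-21381970 on the plus strand, with a single TSS, and its window held 1 region. This region, chr3R:21378620-21378976, was intergenic with its summit 163 bp upstream of the TSS, and is printed above. Its signal stood at the 70.0, 79.7, 66.9 and 72.9 percentile of lists 1 to 4 (72.4 ± 5.48 SD). All 4 lists placed it above their middle and close to each other. It was the only reproducible region within 1 kb of a TSS of any of the 10 genes, so 1 of 10 had one, against 15.9% of all genes.

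The promoter regions most like that of tin, by Euclidean distance over the 4 percentiles among 1095 genes with such a region in all 4 lists, were those of by, CG1827 and Pomp. The distances were 5.94, 6.36 and 6.50 percentile units. The region at by, the fly tensin gene, stood at 70.1, 83.2, 70.2 and 76.4.

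Bagpipe, also an NK-type factor, acts downstream of Tinman in visceral mesoderm. The gene bap (chr3R:21388880-21390449, plus strand) lies 6909 bp beyond the end of tin. Its window held no summit of a thresholded peak in any list. The region nearest to it was the one at tin, with its summit 10066 bp from the TSS of bap and 66 bp outside its window. The end of that region, at 21378976, reached into the bap window, which starts at 21378880. With windows of 20 kb, bap therefore counts as having a region through the tin promoter.

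Biniou is the FoxF-type forkhead factor of visceral mesoderm. Upstream of bin (chr3L:6990622-6994447, plus strand) lay 2 intergenic regions with summits 358 bp apart. The farther, chr3L:6988985-6989274, had its summit 1474 bp upstream of the TSS and was missing from list 1, with percentiles of 72.4, 25.0 and 55.8 in lists 2 to 4 (51.1 ± 24.0 SD, n = 3). The nearer, chr3L:6989281-6989655, 1116 bp upstream, was in all 4 lists at 29.2, 58.1, 40.7 and 3.31 (32.8 ± 23.0 SD). Both ranked highest in list 2, and their spread between lists was wide. Replicate 2 alone added a weak peak at the 5.52 percentile, 55 bp downstream of a TSS of the neighbouring gene Mp, a collagen gene.

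Zfh1 is a zinc finger and homeodomain repressor of mesoderm, heart and other lineages. The gene zfh1 (chr3R:30765926-30789202, plus strand) has 2 TSSs, and its window held 4 reproducible regions. The strongest, chr3R:30781656-30781870, lay in an intron 1490 bp upstream of a TSS of zfh1, with percentiles of 94.6, 91.1, 83.9 and 91.1 (90.2 ± 4.49 SD). Every list placed it among its strong peaks. A region just past the gene's end, chr3R:30789380-30789762, was weak at 11.4, 21.2 and 5.86 in lists 1 to 3 (12.8 ± 7.77 SD, n = 3) and absent from list 4.

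The other 2 regions in the zfh1 window lay in an intron of wts, which encodes the Hippo pathway kinase Warts. The one at chr3R:30796746-30797070 had percentiles of 77.6, 80.7, 74.3 and 48.7 (70.3 ± 14.6 SD), with list 4 the lowest. Its neighbour at chr3R:30797283-30797670, 557 bp away, had 12.8, 36.0, 37.5 and 22.2 (27.1 ± 11.8 SD). For both, the nearest TSS was that of wts, at 9720 and 9163 bp, so their place in the zfh1 window does not tie them to zfh1. Replicate 1 alone had a further peak 4500 bp upstream of a TSS of zfh1, at the 16.1 percentile.

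Mef2 encodes the MADS-box factor that drives muscle differentiation genes. The gene (chr2R:9913496-9958858, minus strand) has 3 TSSs and held the most regions, 4 of them reproducible. The region of highest signal around any of the 10 genes, chr2R:9959725-9960117, stood at 95.7, 98.9, 98.2 and 96.8 (97.4 ± 1.43 SD). Its summit was 1121 bp upstream of a TSS of Mef2 but only 99 bp upstream of a TSS of Pal1, which encodes an enzyme of neuropeptide amidation. The peak lists cannot assign it to either gene.

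The other 3 Mef2 regions lay within the gene. The one in a 5′ UTR, chr2R:9942842-9943131, 1774 bp downstream of a TSS, had percentiles of 84.3, 78.3, 46.6 and 89.2 (74.6 ± 19.2 SD), with list 3 far below the others. An intronic region at chr2R:9935862-9936226 had 42.9, 47.1, 13.2 and 30.9 (33.5 ± 15.2 SD). A second intronic region, chr2R:9949575-9949909, was in lists 1 to 3 at 15.8, 70.9 and 57.2 (48.0 ± 28.7 SD, n = 3). Among these 3, both regions found in all 4 lists were lowest in replicate 3.

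The Mef2 window also held 6 regions of a single list, 5 of them from replicate 2. Of these 5, the peaks with summits at 9941526 and 9941727 overlap. They count as separate regions because their summits lay just past the 200 bp joining distance. The 6 regions include a peak 20 bp upstream of a TSS of Mef2 at the 5.71 percentile and a peak 118 bp downstream of another at the 25.1 percentile. One replicate 2 peak in the gene, starting at 9941577, had the lowest signal of all 3786 peaks of its list, with a −log10 q-value of 0.00679, and yet an IDR score of 1000. IDR, the irreproducible discovery rate, scores how alike peaks rank in paired lists, and the authors' thresholded lists hold IDR scores of 830 or more. All 5 single-list peaks at Mef2 from replicate 2 lay below the middle of their list, the highest at 44.7 near a TSS of Etf-QO, which encodes a mitochondrial oxidoreductase.

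Nautilus, the fly member of the MyoD family, acts in a subset of muscle founder cells. The window of nau (chr3R:23712814-23718357, minus strand) held 2 reproducible regions, each in 2 lists and each nearest to another gene. The one at chr3R:23709556-23709859 was in lists 1 and 4 at 13.2 and 19.4, 447 bp upstream of a TSS of CG10301. The other, chr3R:23726728-23727116, was in lists 2 and 3 at 51.2 and 34.6, in an intron of CG10365 and 1457 bp upstream of its TSS. No list held both. Within nau itself only replicate 4 had a peak, in an intron at the 48.0 percentile.

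Heartless is the FGF receptor that guides mesoderm migration. The gene htl (chr3R:18045216-18052984, minus strand) had no reproducible region, and the nearest lay 72.3 kb away, by sr, which encodes a tendon cell factor. Replicate 4 alone had a peak, chr3R:18049587-18049890, in an intron 373 bp upstream of a TSS of htl, at the 28.7 percentile.

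Held Out Wings (how) is an RNA-binding protein needed in muscle and tendon. In its window (gene at chr3R:22042191-22079321, plus strand) an intronic region, chr3R:22049174-22049504, 7140 bp downstream of the TSS, stood at 35.2, 63.3, 11.5 and 44.9 (38.7 ± 21.6 SD). An intergenic region 2474 bp upstream, chr3R:22039561-22039864, was in lists 1 and 2 at 23.6 and 33.5. Both were of middle or low rank in most lists.

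Act57B encodes an actin of larval muscle and Mhc the muscle myosin heavy chain. Neither Act57B (chr2R:20944021-20946431, plus strand) nor Mhc (chr2L:16766566-16788766, plus strand, 5 TSSs) had a thresholded peak in its window in any replicate list. The series-level lists are described further down. The nearest reproducible regions lay 37.3 kb from Act57B, by CAH15, and 45.7 kb from Mhc, by Cyt-c-p, which encodes a cytochrome c.

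**Figure D2:**
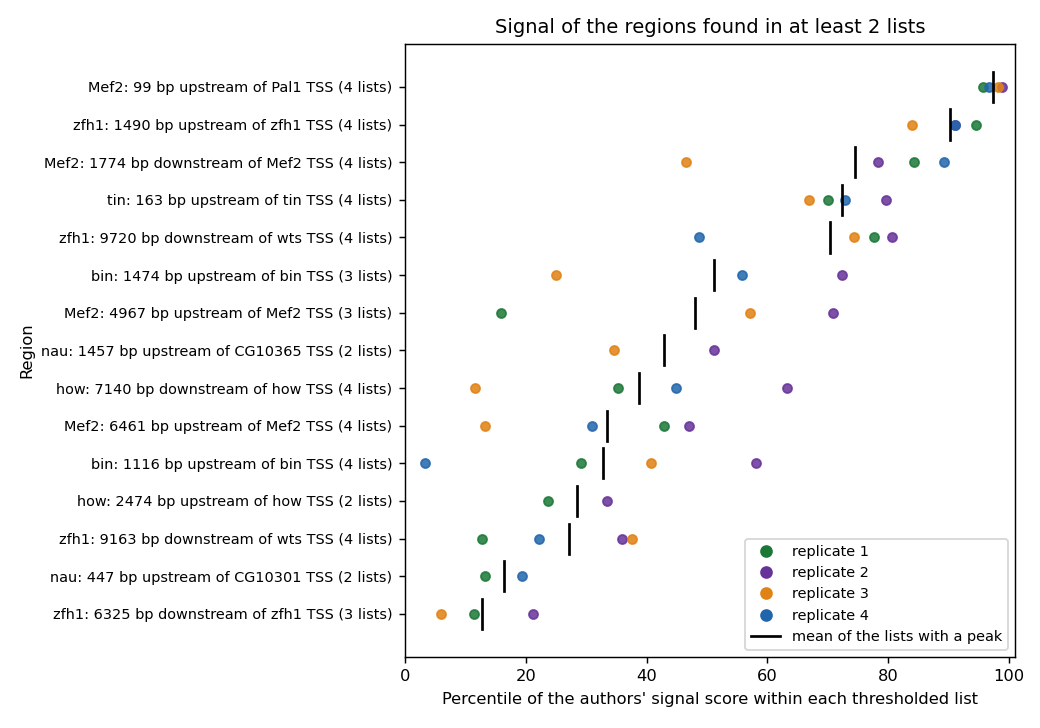
Signal of the 15 reproducible regions. The x axis is the percentile of the authors' signal score within each thresholded list, coloured points are replicates 1 to 4 and black bars are means over the lists with a peak. The Mef2 region next to Pal1 (97.4) and the zfh1 intron region (90.2) have high, close points, while both bin regions and the how intron region (38.7 ± 21.6 SD) spread widely.

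Of the 15 reproducible regions, 5 had a mean percentile of 70 or more: the 2 strongest at Mef2, the zfh1 intron, the tin promoter and the stronger wts region. The median of the mean percentile was 42.9 over the 15 regions and 50.4 over all reproducible regions. Among regions in all 4 lists these medians were 70.3 and 69.4. Of the 15, 9 were in all 4 lists (60.0%), against 44.3% of all reproducible regions. Single-list regions made up 10 of the 25, against 40.8% of all regions, and 1, 6, 0 and 3 of them came from replicates 1 to 4.

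Of the 15 reproducible regions, 3 lay at most 1 kb from a TSS of any gene (those of tin, Pal1 and CG10301), against 61.8% of all reproducible regions. At 2 kb the number was 8 of 15. Over all reproducible regions, 40.4% lay at 0 to 200 bp, 21.4% at 201 to 1000 bp and 10.1% at 1001 to 2000 bp. The distance from 1001 to 2000 bp alone held 33.3% of the 15, so the gap was smaller at 2 kb. Of the 10 single-list regions, 5 lay within 1 kb of a TSS, and the share over all single-list regions is not given here. For the 15 reproducible regions, the median distance to the nearest TSS was 1774 bp, against 422 bp over all. An intron held 7 of the 15 (44.6% of all), and 6 were intergenic, 2 in a 5′ UTR and 0 in a coding exon or 3′ UTR. Shares over all regions are given for introns only, so the other counts have no background here. The nearest TSS belonged to one of the 10 genes in 10 cases and to another gene in 5. These shares rest on 15 regions from 6 genes, 8 of them from Mef2 and zfh1.

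**Figure D3:**
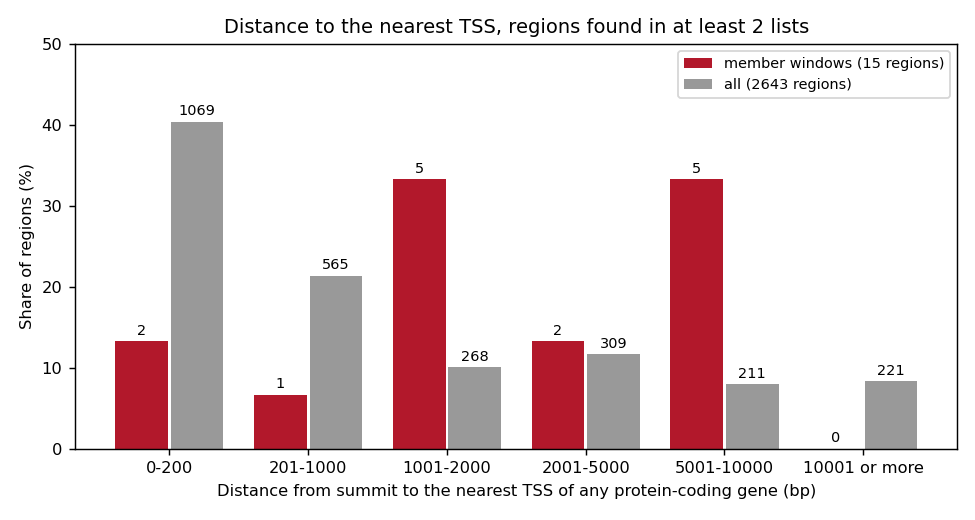
Distance from each region's summit to the nearest TSS of any protein-coding gene, in bp on the x axis, with the share of regions in percent on the y axis and the number of regions above each bar. Of the regions near the 10 genes (red), 2 of 15 lay within 200 bp, against 1069 of 2643 regions over all (grey).

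Early fate genes had more peaks per length of window than the 2 contractile genes. Windows of the 7 early fate genes (217 kb merged) held 55.2, 82.9, 55.2 and 59.8 thresholded peaks per Mb in lists 1 to 4 (63.3 ± 13.2 SD), and the 2 contractile windows (64.6 kb) held 0 in each list. The how window held 35.0, 35.0, 17.5 and 17.5 peaks per Mb (26.3 ± 10.1 SD), and all arms held 14.2, 27.5, 15.4 and 17.8 (18.7 ± 6.06 SD). The early fate density was 3.90, 3.01, 3.59 and 3.36 times that of all arms in lists 1 to 4 (3.46 ± 0.375 SD). In reproducible regions it was 59.8 per Mb, against 19.2 per Mb over all arms.

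This contrast rests on few genes. Of the 13 reproducible regions in the early fate windows, 5 lay nearest to a TSS of another gene (Pal1, wts, CG10301 or CG10365). At the density of all arms, the contractile windows would hold 1.24 regions, so finding 0 in them is a difference of about 1 region. Without Mef2 and zfh1 the other 5 early fate genes held 41.4 ± 11.9 peaks per Mb (SD, n = 4), or 2.28 ± 0.623 times the density of all arms. The 10 genes were also picked by name with earlier results of these data known, so no p is given for their score.

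Longer lists of the same kinds did not show such a gap. Of 29 further fate and signalling genes, 16 (55.2%) had a reproducible region in the window, of 10 myoblast fusion genes 6 (60.0%) and of 22 further contractile genes 10 (45.5%), beside 49.4% of all genes. Peak density was 18.6 ± 6.17, 24.3 ± 4.89 and 17.4 ± 5.46 per Mb (SD, n = 4) for these lists, near that of all arms. A region within 1 kb of a TSS was found for 2, 3 and 3 genes (6.90%, 30.0% and 13.6%), beside 15.9% of all genes.

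Among the fate genes these were the T-box gene org-1, with a mean percentile of 96.5 ± 1.40 (SD, n = 4), and the Pax gene Poxm, with 86.0 ± 3.16. Among the fusion genes they were mbc, which encodes a Rac exchange factor subunit, with 83.2 ± 5.02, Vrp1, an actin regulator, with 72.0 ± 8.12 (n = 3), and rols, a scaffold of fusion sites, with 31.8 ± 7.36 (n = 3). Among the contractile genes they were Msp300, the fly nesprin, with 93.0 ± 3.27 in its stronger region, the titin-like gene sls with 67.1 ± 9.64, and Actn, which encodes alpha-actinin, with 50.8 ± 35.3 (n = 3). The nearest TSS of the mbc region was that of Nup98-96 and of the Actn region that of usp, which encodes a nuclear receptor. Genes without such a region include Alk, ap and Doc1 of the first list, blow, hbs and kirre of the second, and Act79B, Act87E and Act88F of the third.

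**Figure D4:**
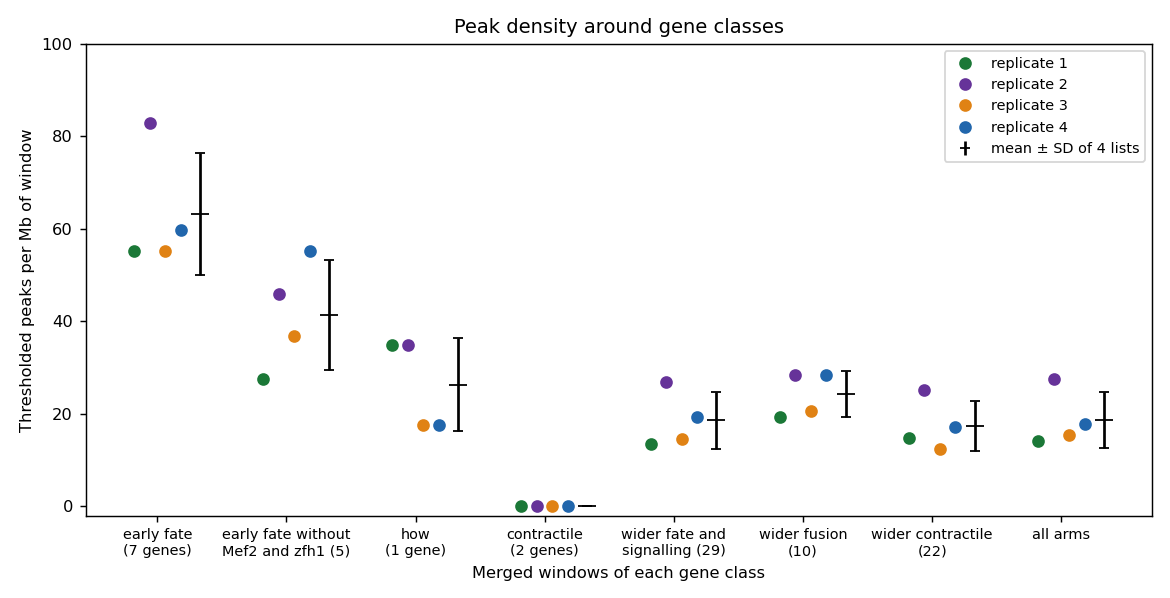
Thresholded peaks per Mb of merged window for each gene class, with a coloured point per replicate list and the mean ± SD of 4 lists in black. The early fate genes (63.3 per Mb) stand above all arms (18.7), the 2 contractile genes are at 0, and the 3 wider lists lie between 17.4 and 24.3.

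The authors' longer, relaxed ranked lists (49135, 36545, 40137 and 32752 peaks) were used to see how far the genes without thresholded peaks fall short. A ranked peak lay within 1 kb of a TSS in all 4 lists for 7 of the 10 genes, against 32.2% of all genes. The 7 include Act57B, Mhc and htl, and the other 3 are bap, how and nau. The best ranked peak at tin stood at the 98.8, 97.9, 98.2 and 98.0 percentile of lists 1 to 4. For comparison, the lowest 5% of thresholded peaks ranked at or below the 95.4, 88.8, 94.1 and 91.2 percentile of their ranked lists.

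At Act57B the best ranked peak stood at 92.2, 86.1, 85.7 and 74.2, and at Mhc at 87.5, 88.6, 80.1 and 78.9. All of these lay below those marks, with list 2 nearest for both genes. At htl the values were 82.1, 87.0, 57.7 and 94.5, of which list 4 alone reached its mark. At Mef2 they were 88.3, 92.0, 92.8 and 80.5, at zfh1 68.3, 52.4, 39.4 and 88.5, and at bin 29.3, 44.7, 54.1 and 42.0. The TSSs of zfh1 and bin thus carried middling ranked peaks in most lists, while their thresholded regions lay farther off. At nau they were 83.0, 57.2 and 39.6 in lists 1 to 3, and at how 73.8, 77.4 and 79.6 in lists 1, 2 and 4. At bap they were 5.92, 7.25 and 81.7, with none in list 4, so bap had no steady peak even here. The means were 84.5 ± 7.54 at Act57B and 83.8 ± 4.97 at Mhc (SD, n = 4). These lay above those of 5 of the 7 early fate genes (bap, bin, zfh1, nau and htl), though Mhc has 5 TSSs. Over the whole window, as used for peak density, the order differed. The mean best percentile was then 84.5 at Act57B and 86.9 at Mhc, above bap (80.0) only. It was 87.1 at htl, 95.9 at nau, 96.9 at bin, 98.2 at tin, 99.3 at zfh1 and 99.8 at Mef2. These window values are not adjusted for the number of ranked peaks in each window. In list 1 that number ran from 8 at htl and nau to 37 at Mef2. Over all genes with a ranked peak within 1 kb of a TSS, the median best percentile there was 74.4, 83.3, 79.3 and 76.6. Over the 10, 10, 9 and 8 of the member genes with one it was 82.6, 81.7, 80.1 and 80.1.

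**Figure D5:**
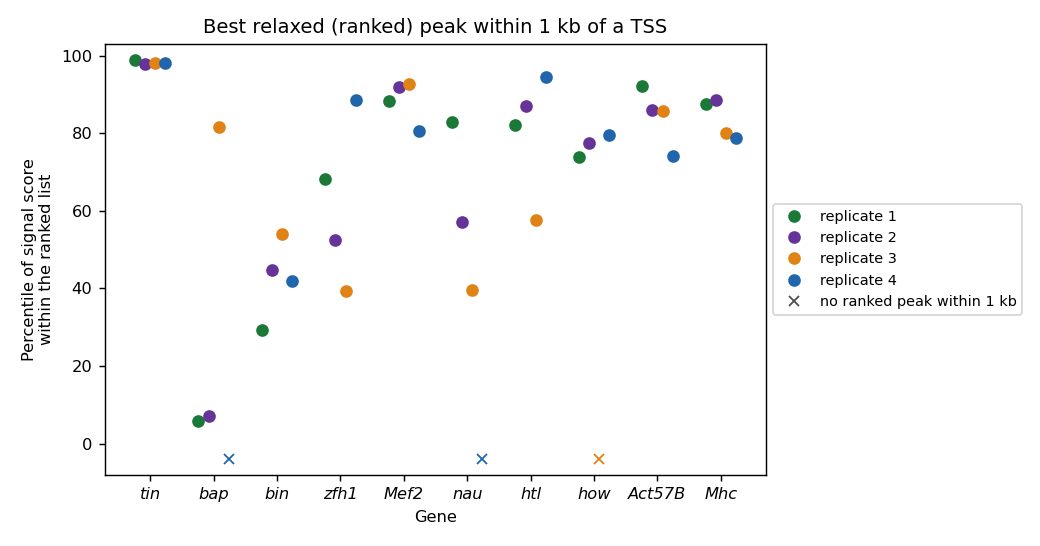
Best peak of the relaxed ranked lists within 1 kb of a TSS of each gene, as a percentile of the signal score within each ranked list (y axis), with a coloured point per replicate and a cross where a list had none. The 4 points of tin lie at 97.9 or above, those of Act57B and Mhc between 74.2 and 92.2, and those of bap are scattered from 5.92 to 81.7.

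Where a replicate lacked a call, its ranked list usually held a peak. The 25 regions had 39 list positions without a thresholded peak, and 30 of these (76.9%) had a ranked peak within 200 bp. Over all joined regions the share was 80.7%. Not all of these ranked peaks were weak: the nau intron position stood at 96.0 in list 1, where the mark given above was 95.4. The Mef2 summits 9941526 and 9941727 had the same ranked percentiles in lists 1, 3 and 4 (48.1, 79.1 and 75.8), so these positions are not independent.

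The authors' series-level lists, made from all replicates together, gave a similar picture for most genes. The conservative list (3271 peaks) overlapped 13 of the 15 reproducible regions and 2 of the 10 single-list regions, and had peaks in the windows of the same 6 genes. It overlapped the single-list peak 118 bp downstream of a TSS of Mef2, and in it both tin and Mef2 had a peak within 1 kb of a TSS. The largest list (4488 peaks) overlapped 14 of 15 and 5 of 10 and reached 8 genes, adding htl and Act57B. Shares over all genes and all regions are not given for the series-level lists, so these counts cannot be set against a background. The htl peak of the largest list lay 375 bp upstream of a TSS at the 6.48 percentile of that list. Its Act57B peak, chr2R:20944769-20945088, lay 908 bp downstream of the TSS at the 8.13 percentile. Both were among the weakest peaks of that list.

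Short motif words were counted on both strands within 100 bp of the summits, in the 15 regions and in all 2643. The Biniou word ATAAACA or GTAAACA was in 4 of 15 regions (13.8% of all regions), namely both bin regions and 2 at Mef2. The word GGCGC of Mad and Medea, the effectors of Dpp signalling, was in 6 (17.7% of all). The bHLH words CACATG or CATATG were in 2 (14.1%), at the tin promoter and a Mef2 intron. The Tailless half-site AAGTCA was in 2 (9.69%), at how and at the weaker wts region. Of the Mef2 words searched, which were CTATTTATA and its variants with the letters CTAAATATA and also CTATTTTTA and lastly CTAAAAATA, any was in 1 region (3.18%), the stronger wts region, and the Zelda word CAGGTAG was in 1 (0.870%), beside Pal1.

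Within 100 bp of the 15 summits, no match was found for the Tinman word TCAAGTG (3.67% of all regions). Nor was one found for the Zfh1 and Snail word CAGGTG (6.21%) or the homeodomain word TAATTA (14.3%). The GAGA factor word GAGAGAG (4.16%) and the DREF word TATCGATA (4.05%) had none either. Within 200 bp, the Tinman word was in 1 of 15 (6.85% of all), the Zfh1 word in 1 (11.6%) and the homeodomain word in 2 (25.6%). The GAGA factor word was then in 2 (11.7%) and the DREF word in 0 (6.43%). The Zelda word and the Zfh1 word begin with the same letters but neither holds the other. The G and C content within 100 bp of the summits was 39.8 ± 4.95% (SD over 15 regions) against 38.2 ± 6.40% over all. Matches are descriptions of the letters and not sites of binding.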

How the data were processed

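Processed peak lists of 4 replicate ChIP-seq samples of 1 group were used, on dm6 per the labels. Per the README texts deposited with the samples, a thresholded and a ranked peak list were made for each replicate from its own alignment and shared further inputs, and series-level lists from all replicates. Which aligner and peak caller were used is not given in the sources used here. The deposited signal score of each peak is the authors' own value and was used only within a list, as were the deposited IDR score and the deposited −log10 q-value. No read counts are given, so depth is unknown.

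Summits up to 200 bp apart in the thresholded lists were joined by single linkage, and a region was placed by its median summit. Coordinates are 1-based. Genes and TSSs came from Ensembl release 115, and sequences from RefSeq Release 6. The rule for genes named was all 10 members, the gene of the nearest TSS of each region, genes of the wider lists with a region within 1 kb of a TSS plus up to 3 without one in alphabetical order, and the 3 genes most like a member with a region at its TSS. The gene nearest to a region outside the windows was named after its values were seen. In the wider lists, Unc-89 was matched under its annotated symbol Obsc. The members and lists were chosen with earlier results of these data known.

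Alternatives covered the lists required, each replicate left out, stronger or equal-length lists, the joining distance, the series-level lists, the flank, the TSS distance, class membership and the motif window. Added after seeing the data were lists with a −log10 q-value of 1 or more, and the early fate class without Mef2, zfh1 or both. The steps were tested on simulated data. Python 3.11.15, numpy 2.4.6, pandas 2.3.3 and matplotlib 3.10.9 were used.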

Additional observations from a re-analysis of the deposited data

Results flagged for a closer look

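In 3 of 32 sets of 4 replicate values, 1 replicate stood far from the other 3, and chance gives about 1 such set in 20. Replicate 2 held 82.9 thresholded peaks per Mb in the early fate windows, where the other lists held 55.2 to 59.8. The same replicate held 59.0 peaks per Mb over all 10 windows, against 38.3 to 41.3 in the others. Of its 20 peaks there, 18 lay in the early fate windows, so these sets are not independent. Replicate 2 also had the longest list, at 3786 peaks, and as a multiple of all arms its early fate density, at 3.01 times, was the lowest of the 4. At bap, the best ranked peak in the window stood at the 70.7 percentile in replicate 4, against 82.5 to 83.4 in the others. No cause was tested for any of them.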

How the results depend on the processing

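The main values were 15 regions, 6 genes with a region in the window, 1 gene with a region at a TSS (1 kb), and 59.8 more reproducible regions per Mb in early fate than in contractile windows. Regions numbered 25 with 1 list required, 9 with all 4, 7 in the stronger 50% of each list and 5 in the gene spans alone, where 3 genes had one. Genes with a region at a TSS numbered 3 with 1 list required, 2 in the conservative list, 4 in the largest list and 4 at 2 kb. Shares of all genes at a TSS or in gene spans are not given under these other settings. The gene counts under them therefore have no background. The density difference was 106 with 1 list, 36.8 with all 4, 32.2 in the stronger 50%, 44.5 with 20 kb flanks, 44.3 in gene spans and 46.0 without Mef2 and zfh1. Since the contractile windows held 0 regions under every alternative but the largest list, with 1, the sign of this difference shows nothing about stability. With each replicate left out in turn, regions numbered 13 to 14, genes with a region in the window 6, genes with one at a TSS 1, and the difference was 55.2 in each case. Of 22 motif counts under other windows, 12 moved by more than 1.5 times. No paired analysis was possible because there is only 1 group. The lists hold peaks that passed the authors' threshold, so a gene without one may still have weaker signal, and without read counts no limit can be set on it.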
